A study of Mus musculus with 24 samples.

Results

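Effectors and feedback genes of the Wnt pathway are described here across control and paused mouse embryonic stem cells, wild type or labelled as Smad2 knockout. The genes were taken by symbol: Axin2, Apc, Ctnnb1, Nkd1, Znrf3, Rnf43, Lef1, Tcf7, Tcf7l1 and Tcf7l2. All 10 were found in both results tables, which together hold 20625 genes, 19134 of them shared. Poly(A) RNA was sequenced from 24 libraries of E14, an embryonic stem cell line grown on gelatin in serum with leukaemia inhibitory factor. The 6 groups of 4 libraries were wild type, Smad2_KO1 and Smad2_KO2, each in control medium or paused for 12 h with 200 nM INK128, which blocks the growth-promoting kinase mTOR. Smad2 is a transcription factor activated by Nodal and activin, and the labels do not say whether a knockout line is a single clone. Nor do they say whether the replicates were separate cultures.

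In the Wnt pathway, secreted Wnt proteins bind Frizzled receptors with Lrp5 or Lrp6 at the cell surface. Without a signal, a destruction complex built on Axin and Apc has beta-catenin, the product of Ctnnb1, degraded; with a signal, beta-catenin accumulates, enters the nucleus and binds the DNA-binding proteins of the TCF/LEF family. Axin2, Nkd1, Rnf43 and Znrf3 act back on the pathway as inhibitors, and several of them are themselves Wnt targets. In mouse embryonic stem cells Tcf7l1, also called Tcf3, is known mainly as a repressor of pluripotency genes that beta-catenin relieves.

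Each value below comes from a results table with 1 mean normalized read count, 1 log2 change, its standard error (SE) and an adjusted p per gene, and no value for a single library. The tables do not say which group is the numerator. The direction is taken as knockout relative to wild type, since Smad2 itself had a negative change in the authors' deposited tables, -0.35 (SE 0.07, adjusted p 6.5e-06) in control and -0.63 (SE 0.06, adjusted p 4.1e-26) in paused cells. Per these changes the Smad2 transcript in the knockout was still at 78.6% and 64.6% of wild type, and a value per gene cannot show which part of the gene was deleted. Smad2 loss below means this labelled knockout. Stem cell identity was checked with Pou5f1, Sox2, Nanog, Esrrb, Zfp42, Dppa5a, Utf1 and Tdgf1, whose means lay between 12896 and 51710 normalized counts in the authors' deposited table (control) and between 11866 and 44100 in the paused table. A gene was counted as called at an adjusted p under 0.05, and rose or fell is used only of called genes.

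Lef1 and Rnf43 were lower and Tcf7l1 was higher in the Smad2 knockout in both conditions. In control cells the authors' deposited table called 5 of the 10 genes, against a background of 41.4% of all genes tested: Rnf43, Lef1 and Axin2 fell, Tcf7l1 and Ctnnb1 rose. The background was 21.9% for lower and 19.5% for higher genes. In paused cells the authors' deposited table also called 5 of 10 (background 42.6%): Rnf43, Lef1, Tcf7l2 and Tcf7 fell (background 22%) and Tcf7l1 rose (background 20.5%). Both shares lie near the background, so the count itself does not set these genes apart. The 3 genes called in both, all in the same direction, stand beside a background of 30.3% of the genes in both tables. Apc, Nkd1 and Znrf3 were called in neither.

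The median change of the 10 genes was -0.11 in control and -0.08 in paused cells, per the authors' deposited tables, beside medians over all genes of 0.00085 and -0.0016. The median size of change, ignoring sign, was 0.23 and 0.18 in the authors' deposited tables, against 0.22 and 0.21 for all genes. With summed counts made equal between genotypes, the share of higher calls over all genes went from 47.1% to 60.5% in control cells and from 48.2% to 57.6% in paused cells.

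**Figure D1:**
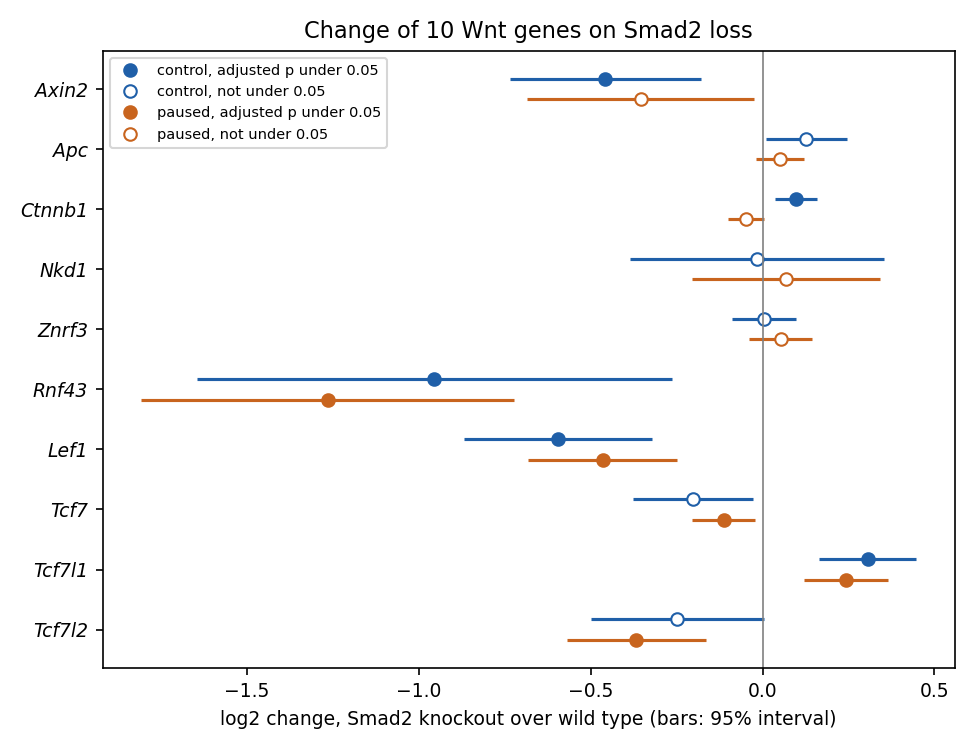
Log2 change of each gene, knockout over wild type, in control (blue) and paused (orange) cells; bars are 95% intervals from the deposited standard errors, and filled points have an adjusted p under 0.05. Rnf43 and Lef1 lie left of 0 and Tcf7l1 right of 0 in both conditions.

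The 250 bases before a RefSeq transcript start are shown for the 3 genes called in both conditions and for Axin2. Axin2 is the standard readout gene of the pathway, and the windows show the sequence next to these genes. Sequences are from RefSeq on GRCm38.p6, 5′ to 3′ on the strand of the gene, with the first listed start of each: chr3:131110047-131110296 (+) for Lef1, chr11:87662837-87663086 (+) for Rnf43, chr11:108920099-108920348 (+) for Axin2 and chr6:72789046-72789295 (-) for Tcf7l1. Capitals mark CAGAC or its reverse complement GTCTG, a short motif that Smad3 and Smad4 bind.
Lef1: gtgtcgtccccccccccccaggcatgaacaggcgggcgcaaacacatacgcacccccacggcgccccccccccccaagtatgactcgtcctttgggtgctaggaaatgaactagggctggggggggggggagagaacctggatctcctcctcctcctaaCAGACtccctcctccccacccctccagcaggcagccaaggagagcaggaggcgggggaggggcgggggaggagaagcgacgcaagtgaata
Rnf43: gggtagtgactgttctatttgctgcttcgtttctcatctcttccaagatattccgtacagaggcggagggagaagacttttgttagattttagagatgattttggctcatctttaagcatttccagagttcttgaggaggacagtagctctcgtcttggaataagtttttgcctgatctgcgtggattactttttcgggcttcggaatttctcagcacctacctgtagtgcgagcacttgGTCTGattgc
Axin2: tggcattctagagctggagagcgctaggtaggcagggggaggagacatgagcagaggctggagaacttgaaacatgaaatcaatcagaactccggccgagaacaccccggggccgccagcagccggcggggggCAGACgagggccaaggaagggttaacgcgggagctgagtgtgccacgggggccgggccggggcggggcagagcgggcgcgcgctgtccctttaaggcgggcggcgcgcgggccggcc
Tcf7l1: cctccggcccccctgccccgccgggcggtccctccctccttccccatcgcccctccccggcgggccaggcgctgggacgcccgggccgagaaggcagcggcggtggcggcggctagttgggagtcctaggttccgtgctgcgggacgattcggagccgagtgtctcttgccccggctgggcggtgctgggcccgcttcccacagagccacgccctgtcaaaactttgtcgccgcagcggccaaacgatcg
Lef1 has this motif at position -91 from the start, Axin2 at -117 and Rnf43, on the other strand, at -10, while the window of Tcf7l1 has none. Of the 15 listed starts of the 8 genes matched by symbol, 7 starts of 4 genes hold it. The motif is common: 42.2% of all 32851 promoters of this length hold it. The TCF/LEF motif was searched as CTTTGAT and CTTTGAA with their reverse complements ATCAAAG and TTCAAAG, neither of which overlaps the other motif. None of the 15 starts held either form, which occur in 3.21% and 4.46% of all promoters. These are matches of letters in a short window and say nothing of binding. The RefSeq starts can differ from the gene spans of the annotation GENCODE M21 given below. The window shown for Rnf43 lies inside its GENCODE span, and most of the window shown for Tcf7l1 lies inside its own. The windows and motif positions thus hold for the RefSeq starts only. The GC content of the windows was 66.4% for Lef1, 44.4% for Rnf43, 69.2% for Axin2 and 73.6% for Tcf7l1, beside a median of 52.4% for all promoters.

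Among the DNA-binding factors, Lef1 had the clearest fall. Lef1 (chr3:131110471-131224356, + strand, GRCm38, GENCODE M21), which codes for an activator of Wnt target genes in most contexts, had a mean of 766 normalized counts in the authors' deposited table (control). It fell there by 0.59 on the log2 scale (SE 0.14, 95% interval -0.87 to -0.32, adjusted p 1.16e-04), to 66.2% of the wild-type level. In the authors' deposited table (paused) Lef1 averaged 252 normalized counts, and it fell by 0.47 (SE 0.11, 95% interval -0.68 to -0.25, adjusted p 1.43e-04), to 72.4%. The intervals of the changes overlap widely, while the means stand far apart. An antisense gene, Gm43352, shares 13.7% of the exon bases of Lef1, and whether reads were counted by strand is not stated in the sources used here.

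Tcf7l1 moved the other way. Tcf7l1 (chr6:72626378-72789254, - strand) had a mean of 6906 normalized counts in the authors' deposited table (control) and rose by 0.31 (SE 0.07, 95% interval 0.17 to 0.45, adjusted p 1.17e-04), 1.24-fold. In the authors' deposited table (paused), with a mean of 5605 normalized counts, it rose by 0.24 (SE 0.06, 95% interval 0.12 to 0.37, adjusted p 4.58e-04), 1.18-fold. The ratio of Tcf7l1 to Lef1 was thus 1.87-fold higher in the knockout than in the wild type in control cells and 1.63-fold higher in paused cells. These ratios have no SE, since both genes were measured in the same libraries.

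The other TCF/LEF genes had smaller negative changes in both tables, and each was called in paused cells and not in control cells. Tcf7l2 (chr19:55741820-55933654, + strand) had a mean of 572 normalized counts and a change of -0.25 (SE 0.13, adjusted p 0.111) in the authors' deposited table (control). It fell by 0.37 (SE 0.10, adjusted p 0.00145, mean 701 normalized counts) in the authors' deposited table (paused), to 77.5% of wild type. Tcf7 (chr11:52252371-52283014, - strand), which codes for TCF1, had a change of -0.20 (SE 0.09, adjusted p 0.0542, mean 2668 normalized counts) in the authors' deposited table (control). It fell by 0.11 (SE 0.05, adjusted p 0.036, mean 3521 normalized counts) in the authors' deposited table (paused), to 92.5% of wild type. The call of Tcf7 in paused cells was lost with equal summed counts (adjusted p 0.172), and with genes of at least 50 normalized counts adjusted together it was called in control cells too (adjusted p 0.0454). Neither gene passed the test of the difference between the conditions (adjusted p 0.844 for Tcf7l2 and 0.793 for Tcf7).

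Of the receptor ligases, which take Frizzled receptors off the cell surface, Rnf43 fell and its relative Znrf3 was not called. Rnf43 (chr11:87662722-87735539, + strand) had the lowest level per kb of the 10 genes, with means of 21.3 and 29.8 normalized counts under control and paused conditions in the authors' deposited tables. It fell by 0.95 (SE 0.35, 95% interval -1.65 to -0.26, adjusted p 0.0195) in the authors' deposited table (control), to 51.6% of wild type. In the authors' deposited table (paused) it fell by 1.27 (SE 0.28, 95% interval -1.81 to -0.72, adjusted p 3.01e-05), to 41.6%. Rnf43 thus had the largest point change of the 10 in both tables and the widest interval. Znrf3 (chr11:5276324-5444847, - strand), at 1110 and 1154 normalized counts in the authors' deposited tables, had changes of 0.0040 (SE 0.05, 95% interval -0.09 to 0.10) and 0.05 (SE 0.05, 95% interval -0.04 to 0.14) in control and paused cells. Its adjusted p was 0.958 and 0.382 in the authors' deposited tables, and these intervals reach no further than a change of 0.14 in either direction.

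Axin2 (chr11:108920349-108950783, + strand), a scaffold of the destruction complex that Wnt signals induce, fell by 0.46 (SE 0.14, 95% interval -0.74 to -0.18, adjusted p 0.00488, mean 1047 normalized counts) in the authors' deposited table (control), to 72.9% of wild type. In the authors' deposited table (paused) the change was -0.35 (SE 0.17, 95% interval -0.69 to -0.02, adjusted p 0.0762, mean 1089 normalized counts), which was not called. The difference between the conditions was 0.10 (SE 0.22, adjusted p 0.915). Nkd1 (chr8:88521354-88594884, + strand), an inhibitor that binds Dishevelled, had 77.1 and 103 normalized counts in the authors' deposited tables and changes of -0.016 (SE 0.19, adjusted p 0.957) and 0.07 (SE 0.14, adjusted p 0.732). The feedback genes therefore did not share 1 direction: Axin2 and Rnf43 had negative changes in both tables, while Nkd1 and Znrf3 had values near 0. The intervals of Nkd1 are wide, -0.39 to 0.35 in control and -0.21 to 0.34 in paused cells.

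Ctnnb1 and Apc had small changes. Ctnnb1 (chr9:120929216-120960507, + strand) had the highest level per kb of the 10, with 40934 and 35438 normalized counts under control and paused conditions in the authors' deposited tables. In the authors' deposited table (control) it rose by 0.10 (SE 0.03, 95% interval 0.04 to 0.16, adjusted p 0.00523), 1.07-fold. In the authors' deposited table (paused) the change was -0.05 (SE 0.03, 95% interval -0.10 to 0.0043, adjusted p 0.138) and was not called. Ulk4, on the opposite strand, shares 14.6% of its exon bases and had means of only 88.9 and 85.2 normalized counts in the authors' deposited tables. Apc (chr18:34220924-34322552, + strand), the large scaffold of the destruction complex, had a change of 0.13 (SE 0.06, adjusted p 0.0781, mean 6285 normalized counts) in control and 0.05 (SE 0.04, adjusted p 0.254, mean 7601 normalized counts) in paused cells, per the authors' deposited tables. With equal summed counts Apc was called as higher in both conditions, with changes of 0.18 (adjusted p 0.00883) and 0.09 (adjusted p 0.0403).

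Over all genes, the deposited change over its SE had a middle spread 2.76 (control) and 2.80 (paused) times that of a standard normal. With this statistic scaled to a standard normal, none of the 10 genes was called in either condition, beside backgrounds of 1.48% and 2.25%. Against a null of changes up to 1.2-fold, only Rnf43 in paused cells was called (adjusted p 0.00409, beside 10.6% of all genes in each condition). With a 2-fold minimum, 0 genes were called in control cells (background 6.98%) and 1, Rnf43, in paused cells (background 7.1%).

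Levels of different genes were compared per kb of the longest transcript in GENCODE M21. In control cells Ctnnb1 stood highest at 11299 mean normalized counts per kb, followed by Tcf7l1 at 2270, Tcf7 at 1080, Apc at 491, Axin2 at 246, Lef1 at 209, Znrf3 at 176, Tcf7l2 at 154, Nkd1 at 18.9 and Rnf43 at 4.94. The order in paused cells was the same except that Lef1 and Tcf7l2 changed places: Tcf7l2 was at rank 6 with 189 per kb and Lef1 at rank 8 with 68.9, with Znrf3 between them at 183. No spread over libraries exists for these means, so it cannot be said which neighbours in this order differ. Of the summed level of the 4 TCF/LEF genes per kb, Tcf7l1 held 61.1% in control and 52.3% in paused cells, Tcf7 29.1% and 40.4%, Lef1 5.64% and 1.95%, and Tcf7l2 4.15% and 5.35%. With the median transcript length in place of the longest, Tcf7l1 held 84.4% and 79.2% and Tcf7 11.0% and 16.8%, so these shares depend on the isoform assumed. The share of Lef1 was then 2.36% and 0.897%. All these shares come from means that mix genotypes, while Lef1 fell and Tcf7l1 rose in the knockout. The median length also put Apc (2387 and 2887 per kb) above Tcf7 (1267 and 1671) in both conditions, the reverse of the order given above. In control cells it put Tcf7l2 (246 per kb) above Znrf3 (225) as well. The comparison of the control and paused orders above therefore holds for the longest transcript only.

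If each table averaged only the libraries it compared, which the sources used here do not state, its mean lies between the levels of the genotypes. Under that assumption, and leaving out the error of the fitted change, Lef1 had 766 to 1156 normalized counts in wild-type and 507 to 766 in knockout control cells. In paused cells the same ranges are 252 to 348 in the wild type and 182 to 252 in the knockout. The control ranges of Lef1 lie above its paused ranges, in tables that were normalized separately. For Axin2, by contrast, the wild-type ranges of 1047 to 1437 in control and 1089 to 1393 in paused cells overlap.

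**Figure D2:**
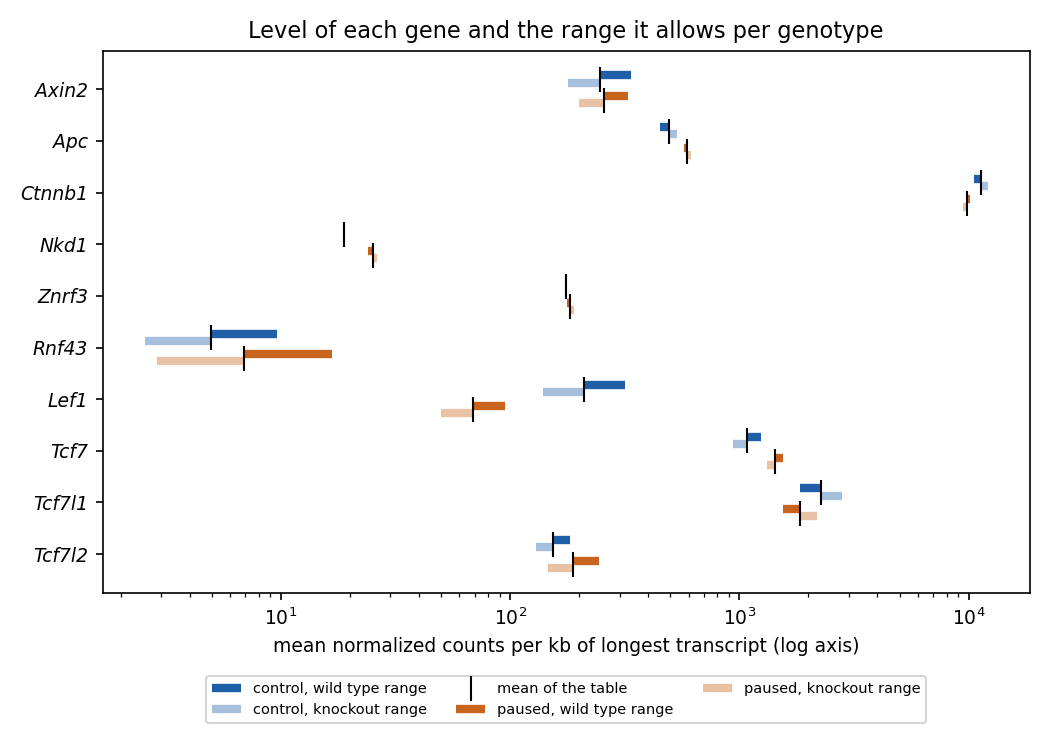
Mean normalized counts per kb of the longest transcript (log axis) for each gene in control (blue) and paused (orange) cells; the black tick is the mean of the table, and dark and pale bars are the ranges for wild type and knockout if the table averaged only the libraries compared, leaving out the error of the change. The bars of Lef1 in control and paused cells do not overlap.

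Across the conditions, Lef1 was the gene of the 10 whose mean level moved most. Its mean in the paused table was 0.329 of that in the control table, 3.04-fold lower, and 135 of 13955 genes with an average mean of at least 50 normalized counts had a lower ratio (0.967%). The ratios of the other 9 genes ran from 0.812 for Tcf7l1 and 0.866 for Ctnnb1, through 1.04 for both Axin2 and Znrf3, 1.21 for Apc, 1.23 for Tcf7l2, 1.32 for Tcf7 and 1.33 for Nkd1, to 1.40 for Rnf43, whose own average mean is under that minimum. The tables were normalized separately and the median ratio over these genes was 1.01, so their general scale was close. These ratios carry no error and mix genotypes, so they are a description of the tables and not a test of INK128.

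**Figure D3:**
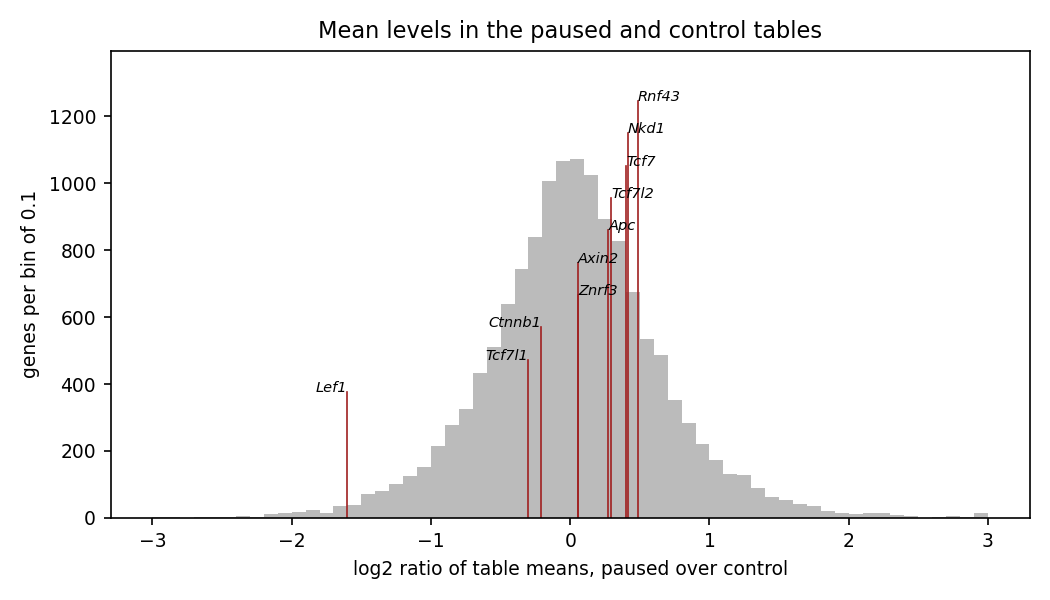
Histogram of the log2 ratio of mean levels, paused over control table, for 13955 genes in bins of 0.1, with ratios beyond the ends counted in the end bins; red lines mark the genes described here. Lef1 lies in the left tail and the other 9 lie within the bulk.

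Whether the effect of Smad2 loss itself differed between the conditions was tested for each gene as the paused change minus the control change, over the combined standard error. Of the 10 genes, 1 passed an adjusted p under 0.05, against a background of 1.44% of all genes. That gene was Ctnnb1, whose change was lower in paused cells by -0.15 (SE 0.04, 95% interval -0.23 to -0.07, adjusted p 0.0311), from 0.10 in control to -0.05 in paused cells. In linear terms the knockout effect was 1.11-fold apart. The call was lost when the statistic was scaled to its middle spread (adjusted p 0.327), and with equal summed counts the difference was -0.17 (adjusted p 0.00856). With equal summed counts 35.9% of calls of this difference over all genes were positive, against 49.8% without that scaling.

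For the 9 other genes the test was not passed, with 5 of the 10 values above and 5 below 0. The difference was 0.13 (95% interval -0.22 to 0.48, adjusted p 0.844) for Lef1, -0.06 (95% interval -0.25 to 0.12, adjusted p 0.865) for Tcf7l1 and -0.31 (95% interval -1.19 to 0.57, adjusted p 0.853) for Rnf43. The interval of Rnf43 allows a difference of over 2-fold toward a deeper fall in paused cells, and that of Tcf7l1 allows less than 1.2-fold in either direction. Of the changes called in 1 condition alone, those of Axin2, Tcf7 and Tcf7l2 were thus not shown to differ between the conditions.

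**Figure D4:**
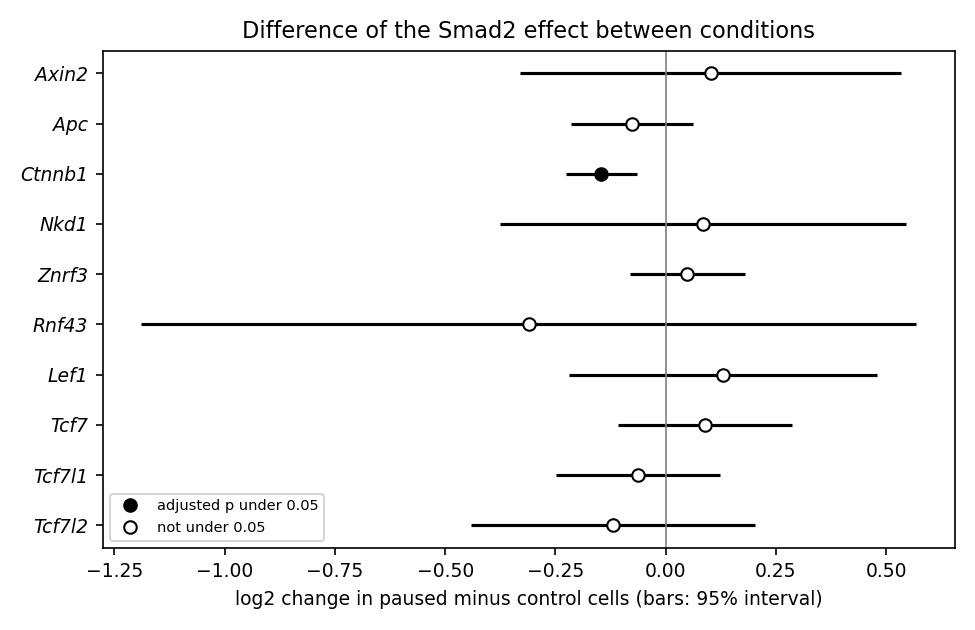
Difference of the log2 change on Smad2 loss, paused minus control cells, for each gene, with 95% intervals from the combined standard errors; the filled point has an adjusted p under 0.05. Ctnnb1 alone is filled, and the interval of Rnf43 is the widest.

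The other genes of the pathway were taken from lists by role, written with earlier results of these data known. The lists hold 120 genes; the authors' deposited table (control) has 114 of them, of which 47 fell, 19 rose and 48 were not called, and the paused one has 113, of which 51 fell, 15 rose and 47 were not called. The called share was 57.9% and 58.4%, against 41.4% and 42.6% of all genes. The share over all genes depends on level: with a mean of at least 50 counts it was 51.1% and 52.7%. With that minimum 55 and 58 of the listed genes were called. Each list below is to be read against the shares of 41.4% and 42.6%. The shares over all genes were 21.9% and 22% for lower and 19.5% and 20.5% for higher genes. The median change of the listed genes was -0.08 and -0.15 in the authors' deposited tables. None of the lists was tested as a set.

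More Wnt ligands fell than rose, beside shares over all genes of 21.9% lower and 19.5% higher (control) and 22% lower and 20.5% higher (paused). Of 19 listed, 17 were in the authors' deposited table (control), where 9 fell, 1 rose and 7 were not called (median -0.76), and 16 in the paused table, where 9 fell, 1 rose and 6 were not called (median -0.72); 7 fell in both. Wnt3, a ligand needed to form the primitive streak, had means of 251 and 107 normalized counts under control and paused conditions in the authors' deposited tables. It fell by 2.45 (SE 0.34, adjusted p 2.95e-11) and by 3.06 (SE 0.45, adjusted p 1.84e-10) in the authors' deposited tables. Wnt4 fell by 1.44 and 2.02 and Wnt5a, a ligand best known outside beta-catenin signalling, fell by 1.09 and 1.54 in the authors' deposited tables. Wnt7a fell by 1.17 and 2.41 in the authors' deposited tables. Wnt7b, outside the naming rule, had the highest mean of the ligands, 1418 and 1295 normalized counts, and was called in neither table. Its changes were 0.06 (adjusted p 0.633) in control and -0.00045 (adjusted p 0.998) in paused cells, per the authors' deposited tables. Of the ligands that fell in control cells, Wnt9b, Wnt10b and Wnt10a had means of only 9.47, 10.2 and 21.8 normalized counts there.

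Surface genes gave a mixed picture. Of 12 Frizzled and Lrp receptors, 6 fell and 1 rose in control cells and 5 fell and 1 rose in paused cells, per the authors' deposited tables, with medians of -0.17 and -0.15. The 7 and 6 of 12 called stand beside 41.4% and 42.6% of all genes. Fzd2 fell by 0.68 and 1.02, Fzd1 fell by 0.66 and 0.54 and Fzd10 fell by 0.34 and 0.57 in the authors' deposited tables. Fzd6 fell by 0.45 in control cells and had a change of -0.28 (adjusted p 0.109) in paused cells, per the authors' deposited tables. Outside the naming rule, Fzd5 had the highest receptor mean in control cells (5254 normalized counts) and Fzd7 in paused cells (5047). Fzd5 rose by 0.28 in control cells and had a change of 0.16 (adjusted p 0.173) in paused cells. Fzd7 fell by 0.32 and 0.22, and the receptor that rose in paused cells was Fzd9, by 0.34. Among the 7 R-spondin and Lgr genes, whose products restrain Rnf43 and Znrf3, 3 fell and 1 rose in control cells and 3 fell and 2 rose in paused cells, per the authors' deposited tables. These are 4 and 5 of 7 called, beside 41.4% and 42.6% of all genes. Lgr4, an R-spondin receptor with 3552 and 3053 normalized counts in the authors' deposited tables, fell by 0.43 and 0.53 there (SE 0.05 and 0.04, adjusted p 9.86e-19 and 6.05e-34). Lgr6, another R-spondin receptor, rose by 0.38 in paused cells and had a change of 0.35 (adjusted p 0.0656) in control cells, per the authors' deposited tables. Wls, which carries Wnt proteins to the surface, fell by 1.15 and 0.75, and Porcn, which attaches their lipid, rose by 0.40 and 0.55 in the authors' deposited tables.

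The list of secreted inhibitors holds 16 genes, among them Kremen1, Kremen2 and Apcdd1, which code for membrane proteins. Of the 16 genes, 13 were measured. In control cells 4 rose and 3 fell and in paused cells 3 rose and 3 fell, per the authors' deposited tables. These 7 and 6 of 13 called also stand beside 41.4% and 42.6% of all genes. Sfrp5 rose by 0.66 and 0.81, Kremen2 fell by 0.67 and 0.64 and Sfrp2 fell by 0.50 and 0.52 in the authors' deposited tables. Dkk1, which falls outside the naming rule at means of 37.2 and 22.2 normalized counts, had the largest called change of this list. It rose by 1.45 and 1.22 in the authors' deposited tables. Apcdd1 rose by 0.52 in control cells and had a change of 0.13 (adjusted p 0.229) in paused cells, per the authors' deposited tables. Of the 18 cytoplasmic components, 6 fell and 3 rose in control cells and 10 fell and 3 rose in paused cells, per the authors' deposited tables. The 9 and 13 of 18 called stand beside 41.4% and 42.6% of all genes. Btrc, which marks beta-catenin for degradation, rose by 0.41 in each of the authors' deposited tables. Dact3 fell by 0.38 and 0.32 and Rnf146 fell by 0.34 and 0.24 in the authors' deposited tables. Dact1 fell by 0.33 in paused cells and had a change of -0.17 (adjusted p 0.164) in control cells, per the authors' deposited tables. Of the 16 nuclear partners, 6 fell in each condition and 5 and 2 rose under control and paused conditions in the authors' deposited tables. The 11 and 8 of 16 called stand beside 41.4% and 42.6%. Bcl9l, a co-activator of beta-catenin, rose by 0.54 and 0.40 in the authors' deposited tables. Genes of co-repressors and of the Groucho/TLE family went both ways. Aes, a short member of that family, rose by 0.52 and 0.56 and Ctbp2, a co-repressor gene, fell by 0.35 and 0.45 in the authors' deposited tables. Tle2, of the same family as Aes, rose by 0.58 in control cells and had a change of 0.37 (adjusted p 0.0683) in paused cells, per the authors' deposited tables. Of 11 planar polarity genes, 5 fell and 1 rose in control cells and 5 fell in paused cells, per the authors' deposited tables. The 6 and 5 of 11 called stand beside 41.4% and 42.6%. Ptk7 fell by 0.53 and 0.81 and Ror1, a Wnt5a receptor, fell by 0.52 and 0.62 in the authors' deposited tables. Celsr1 rose by 0.36 in control cells and had a change of 0.10 (adjusted p 0.27) in paused cells, per the authors' deposited tables. In the test of the difference 1 of 113 pathway genes was called (0.885%, beside 1.44% of all genes), Prickle1 at 0.91 (SE 0.22, adjusted p 0.00801). That call was lost with the scaled statistic (adjusted p 0.17), an alternative chosen for this gene after seeing the data.

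Genes known as Wnt targets included the deepest falls among the listed pathway genes. Of 14 listed, 13 were in the authors' deposited tables, where 8 fell and 1 rose in each condition, and the same 8 fell in both; their medians were -0.59 and -0.86. Over all genes 21.9% and 22% were lower, and 30.3% were called in both in the same direction. Sp5, a direct Wnt target, fell by 3.97 (SE 0.37) and 4.54 (SE 0.44), and T, the primitive streak factor brachyury, by 4.66 (SE 0.48) and 3.86 (SE 0.43) under control and paused conditions in the authors' deposited tables. Cdx1 fell by 1.21 and 0.92 and Cd44 fell by 1.99 and 1.45 in the authors' deposited tables. Ccnd1, which codes for cyclin D1, fell by 0.38 and 0.47 and Myc fell by 0.44 and 0.35 in the authors' deposited tables. Ccnd1 and Myc fall outside the naming rule and were chosen after their values were seen. Ephb2, also outside that rule, was the target that rose, by 0.19 and 0.20 in the authors' deposited tables. Cdx4, Tbx6, Dll1 and Tnfrsf19 were called in neither. The fall of Axin2 in control cells, 0.46 in the authors' deposited tables, was near those of Ccnd1 and Myc and smaller than those of Sp5, T, Cdx1 and Cd44. Of the 5 pluripotency genes that Tcf7l1 represses, Nanog rose by 0.32 and 0.18 in the authors' deposited tables, Nr0b1 fell by 0.38 in paused cells, and Esrrb, Klf2 and Tfcp2l1 were called in neither.

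**Figure D5:**
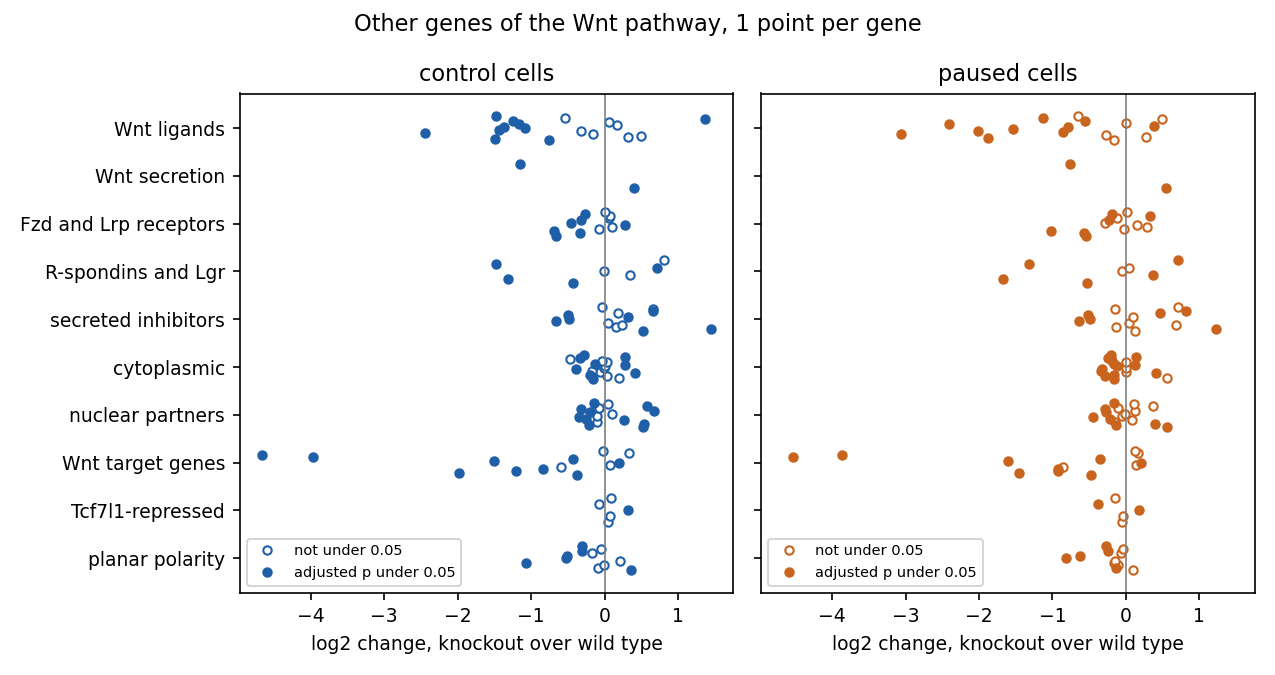
Log2 change on Smad2 loss of the other Wnt pathway genes by role, 1 point per gene, in control (left, blue) and paused (right, orange) cells; filled points have an adjusted p under 0.05. The farthest points to the left are T and Sp5 among the target genes.

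Markers of other cell types moved with these changes, and fewer cells of a type and less RNA per cell cannot be told apart in bulk samples. All 6 primitive endoderm markers rose in both conditions, by 0.66 to 2.19 and 0.59 to 1.70 in the authors' deposited tables. For this and the marker counts that follow, the shares over all genes were 19.5% higher and 21.9% lower in control and 20.5% and 22% in paused cells. If 4 wild-type and 8 knockout libraries were averaged, their summed level was 623 in wild-type and 1206 in knockout control cells and 1209 and 2078 in paused cells. Of 6 primitive streak markers, 5 were in the authors' deposited tables, Mesp1 being in neither; 3 fell and 1 rose in control cells and 2 fell in paused cells. On the same assumption their summed level was 1445 and 394 in control and 1171 and 393 in paused cells. Most of that difference is T, which is also counted among the Wnt targets, while Evx1 was called in neither of the authors' deposited tables and Gsc rose by 0.78 in control cells. Eomes fell by 0.94 in control cells and had a change of -0.06 in paused cells, per the authors' deposited tables, and it passed the test of the difference (0.89, adjusted p 0.0326). Fibroblast markers also fell, 4 of 5 in control and 3 of 4 in paused cells, per the authors' deposited tables, with Lum in neither table and Dcn in the control one alone; trophoblast markers had 1 higher and 1 lower and neuroectoderm markers 1 higher and 3 lower in each condition, with Olig2 in neither table. On the same assumption the summed levels in wild-type and knockout cells were 1418 and 510 for fibroblast, 5267 and 2158 for neuroectoderm and 19581 and 14880 for trophoblast markers in control cells. In paused cells they were 1194 and 586, 5583 and 1316, and 21313 and 17622. A few genes set these sums: Nes, at 2113 and 2142 mean normalized counts in the authors' deposited tables, holds most of the neuroectoderm one and Dab2, at 543 and 1232, most of the primitive endoderm one. The trophoblast sum comes mostly from Krt8, Tfap2c and Krt18, none of them called in the authors' deposited tables, while Hand1 rose by 1.95 and 2.69 and Cdx2 fell by 0.84 and 0.92 there. Lef1 and Axin2 are expressed in the primitive streak of the embryo, and the part of such cells in their falls was not tested.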

How the data were processed

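RNA-seq of 24 libraries was analysed from 2 tables of results, the first on control and the second on paused cells. Per the submitters' processing notes, FastQC, Trim Galore, HISAT2, featureCounts and DESeq2 were used with build mm10; their versions, the annotation, the use of strand, the model and which libraries entered each table are not given in the sources used here. Per the labels, libraries were stranded and made from poly(A) RNA of 50000 cells. The deposited signal is the authors' mean normalized read count per gene. The authors also deposited a log2 fold change with its standard error, a Wald score (their ratio), and a p-value with its Benjamini-Hochberg adjustment. Counts per library were not analysed here, so depth per sample is unknown, and no value, interval or floor per library is given.

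From these, 95% intervals, levels per kb (GENCODE M21, GRCm38) and the difference of the changes were computed; the difference was set over its combined standard error, tested two-sided against a normal distribution, and adjusted by Benjamini-Hochberg across 19134 genes. That test takes the tables as independent. Alternatives were an adjusted p of 0.01, a 2-fold minimum, a test against 1.2-fold, centring on the median, equal summed counts (assuming 4 wild-type and 8 knockout libraries), a statistic scaled to its middle spread, a mean of at least 50 counts, and the median transcript length. Pathway genes were named by rule, unless said otherwise: up to 4 per list with the largest called change. Genes whose mean in that table was under 50 were skipped. The genes and lists were chosen with earlier results of these data known. Promoters were from RefSeq (GRCm38.p6), where 8 of 10 genes matched. Python 3.11.15, numpy 2.4.6, scipy 1.17.1, pandas 2.3.3 and matplotlib 3.10.9 were used. Since the labels name no separate cultures, p-values measure only the spread between these samples, which may be technical.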

Additional observations from a re-analysis of the deposited data

Results flagged for a closer look

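The effect of Smad2 loss differed between the conditions for Ctnnb1: its change was 0.10 in control and -0.05 in paused cells of the authors' deposited tables, a difference of -0.15 (SE 0.04, adjusted p 0.0311). Among the other pathway genes, Prickle1, a planar polarity gene, had changes of -1.08 in control and -0.17 in paused cells of the authors' deposited tables, a difference of 0.91 (SE 0.22, adjusted p 0.00801). Both calls were lost under the scaled statistic (adjusted p 0.327 for Ctnnb1 and 0.17 for Prickle1).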

How the results depend on the processing

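Of the 10 genes, 5 were called in control cells. A 2-fold minimum, the test against 1.2-fold and the scaled statistic left 0, 0 and 0, where 6.98%, 10.6% and 1.48% of all genes were called. In paused cells 5 were called, and the same settings left 1, 1 and 0, beside 7.1%, 10.6% and 2.25% of all genes; the 1 was Rnf43. With 10 genes, counts this low are near those shares. The single call for the difference became 0 at an adjusted p of 0.01 and 0 with the scaled statistic, where 0.533% and 0.183% of all genes were called. The called pathway genes, for which the alternatives were chosen after seeing the data, went from 66 to 19, 22 and 2 in control cells and from 66 to 14, 20 and 2 in paused cells under the same 3 settings, of 114 and 113 listed genes in the tables, to be read against those shares. With equal summed counts the change of Nkd1 in control cells turned from -0.016 to 0.039 (adjusted p 0.895). The causes were not tested. The level of Ctnnb1 over Tcf7l1 per kb, 4.98 in control and 5.31 in paused cells, was 5.32 and 5.67 with the median transcript length. That length reversed the order of Apc and Tcf7 in both conditions, and of Znrf3 and Tcf7l2 in control cells. No paired analysis was possible because the tables hold no values per library, and for the same reason no replicate could be left out. Rnf43, at 21.3 and 29.8 mean normalized counts, falls below the minimum of 50 counts and has no value under it.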
